A study of Mus musculus with 36 samples.

Results

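The nuclear-encoded subunits of the mitochondrial respiratory chain and ATP synthase were followed in the livers of mice lacking dermatopontin (Dpt) and of their wild-type littermates, given carbon tetrachloride (CCl4) or olive oil. Members were the genes whose array symbol carries the family name of a complex I (Nduf), II (Sdh), III (Uqcr), IV (Cox5 to Cox8) or V (Atp5) subunit, with the Nduf assembly factors left out. Cox4i1 and Cox4i2 of complex IV are spelled in a way the rule does not take and are given with other subunits further on. This gave 79 of the 23102 genes measured: 36 of complex I, 4 of complex II, 7 of complex III, 15 of complex IV and 17 of complex V. They were represented by 577 probe sets, 1 to 24 a gene with a median of 6, and a gene's level is the mean log2 signal of its probe sets. The naming rule also took in Atp5s, Atp5sl and Cox7a2l, whose proteins are not counted among the structural subunits today. Cox6c and Uqcr10 were read only by probe sets that name several genes and were not analysed here.

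All 4 groups were female C57BL/6 mice aged 10 to 12 weeks, and liver RNA of 36 mice was read on 1 whole-transcript array each. KO CCl4 livers (9 arrays) came from Dpt-null mice injected under the skin with CCl4 3 times a week for 8 weeks, at 0.1 ml/kg of a solution of 2% in week 1 rising stepwise to 8% in weeks 5 to 8. WT CCl4 livers (9 arrays) came from wild-type littermates on the same schedule. KO oil livers (10 arrays) and WT oil livers (8 arrays) came from Dpt-null mice and wild-type littermates that received the oil alone. Tissue was taken 24 hours after the last injection. Whole liver was read, so fewer cells of a type and less RNA per cell cannot be told apart. The number of arrays limits the precision, and p-values measure the spread between the labelled mice.

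The respiratory chain passes electrons from NADH (complex I) and succinate (complex II) through ubiquinone, complex III and cytochrome c to oxygen at complex IV, and pumps protons across the inner mitochondrial membrane. Complex V, the ATP synthase, lets the protons back and makes ATP. Most subunits are encoded in the nucleus and imported, a few of complexes I, III, IV and V are encoded in mitochondrial DNA, and complex II is wholly nuclear. Hepatocytes are rich in mitochondria and activate CCl4 to a radical that damages membranes, which on repeated dosing leads to scarring.

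Several libraries stood apart, and the results that rest on them are given with and without them. Dpt read 7.40 in the library labelled KO oil replicate 10 and 3.18 in the library labelled WT CCl4 replicate 1, where the other KO libraries read 3.00 to 3.87, the other WT CCl4 libraries 7.48 to 10.12 and WT oil libraries 5.59 to 6.48. KO CCl4 replicate 5 and WT CCl4 replicate 3 had mean hepatocyte marker levels of 8.12 and 8.32, against 10.47 to 11.13 in the other 34 libraries. Markers of skeletal muscle, pancreas or fat were high in 7 libraries, among them WT CCl4 replicates 3, 4, 5, 8 and 9. Y-linked genes were high in 6 oil libraries (3 KO, 3 WT) of mice labelled female and in 0 CCl4 libraries. Across the groups, mean macrophage marker levels were 7.37 to 8.94 in KO CCl4 and 6.51 to 8.13 in WT CCl4 livers. They were 5.46 to 8.41 in KO oil and 5.44 to 6.03 in WT oil livers. The 8.41 was read in KO oil replicate 10, where the other KO oil libraries read at most 5.95. Its stellate and myofibroblast markers averaged 8.41, against at most 6.09 in those libraries. WT CCl4 replicate 1 was lowest of its group for both lists, at 6.51 and 6.62, with the next libraries at 7.10 and 7.48. Both libraries thus stood apart from their treatment group as well as from their Dpt label. Mean periportal hepatocyte marker levels were 5.89 to 9.22 in KO CCl4, 5.95 to 9.39 in WT CCl4, 8.74 to 9.73 in KO oil and 9.17 to 9.73 in WT oil livers. The part of these shifts in the results below was not tested.

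Promoters of the members were read from the RefSeq tables for assembly GRCm38.p6, which cover 250 bases before to 50 after a start site, and 68 of the 79 members were found there. They are shown because nuclear subunit genes are known targets of the activators NRF1, GABP (an ETS factor) and YY1. The letters searched, on both strands, were GCATGCG for NRF1, CCGGAAG for ETS factors and AAGATGG for YY1; GCATGCG and its reverse complement overlap each other in a full NRF1 palindrome. At least 1 match was found in 32 of 68 members (47.1%), against 19.3% of all 27025 genes in the table and 22.7% of the 17713 of them read on these arrays. The NRF1 letters were in 11 members (16.2%, against 4.0% of all genes), the ETS letters in 16 (23.5%, against 9.9%) and the YY1 letters in 12 (17.6%, against 7.3%). Of the genes read on these arrays, 5.1% held the NRF1 letters, 12.9% the ETS letters and 7.2% the YY1 letters. Among the 48 matched members that fell after CCl4 in either genotype, as described below, 47.9% held a match, against 45.0% of the 20 that fell in neither. A match is a description of the letters and not a binding site.

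The 250 bases before the start are given 5′ to 3′ for 6 members whose values are described below, with matches in capitals. Sdhd (chr9:50603850-50604099, minus strand) and Ndufb7 (chr8:83566508-83566757, plus strand) fell in both genotypes. Atp5k (chr5:108434400-108434649, minus strand) had the largest called fall of complex V in WT livers. Atp5g1 (chr11:96075632-96075881, minus strand) and Atp5g2 (chr15:102671048-102671297, minus strand) encode the same ATP synthase subunit, and Cox8b (chr7:140900447-140900696, minus strand) is a form of heart and skeletal muscle.
Sdhd: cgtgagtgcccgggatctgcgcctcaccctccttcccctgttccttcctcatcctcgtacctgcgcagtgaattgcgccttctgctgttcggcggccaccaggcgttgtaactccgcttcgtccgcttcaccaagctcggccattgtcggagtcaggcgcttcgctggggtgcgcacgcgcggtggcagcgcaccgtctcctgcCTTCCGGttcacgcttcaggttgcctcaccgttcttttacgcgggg
Ndufb7: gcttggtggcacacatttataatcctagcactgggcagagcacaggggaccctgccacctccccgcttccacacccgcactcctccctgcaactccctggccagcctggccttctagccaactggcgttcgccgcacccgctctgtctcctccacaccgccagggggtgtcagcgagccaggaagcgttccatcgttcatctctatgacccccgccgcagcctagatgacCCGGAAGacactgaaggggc
Atp5k: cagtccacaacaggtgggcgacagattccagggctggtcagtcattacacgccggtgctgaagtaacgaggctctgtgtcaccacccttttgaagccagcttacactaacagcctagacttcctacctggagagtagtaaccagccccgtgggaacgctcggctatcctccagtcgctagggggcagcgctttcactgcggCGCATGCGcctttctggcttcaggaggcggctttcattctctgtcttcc
Atp5g1: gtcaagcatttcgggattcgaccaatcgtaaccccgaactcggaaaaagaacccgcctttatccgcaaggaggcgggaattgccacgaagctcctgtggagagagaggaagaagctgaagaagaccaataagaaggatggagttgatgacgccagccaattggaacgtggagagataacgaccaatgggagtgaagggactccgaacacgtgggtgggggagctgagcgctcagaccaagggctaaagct
Atp5g2: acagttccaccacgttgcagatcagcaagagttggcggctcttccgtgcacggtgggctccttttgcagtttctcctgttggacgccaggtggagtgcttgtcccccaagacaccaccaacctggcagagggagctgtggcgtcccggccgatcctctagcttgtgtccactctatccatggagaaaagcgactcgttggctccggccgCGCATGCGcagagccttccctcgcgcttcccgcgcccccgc
Cox8b: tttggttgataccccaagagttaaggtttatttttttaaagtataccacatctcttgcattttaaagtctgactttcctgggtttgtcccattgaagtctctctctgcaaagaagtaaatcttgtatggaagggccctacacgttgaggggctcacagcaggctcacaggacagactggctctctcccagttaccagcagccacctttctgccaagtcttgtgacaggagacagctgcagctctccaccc
Sdhd and Ndufb7 each carried 1 ETS match, Atp5k and Atp5g2 each carried the NRF1 letters, and Atp5g1 and Cox8b carried none of the 3 in this window.

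After CCl4 many of the nuclear-encoded subunits fell in each genotype, by small amounts. In KO livers 40 of 79 members fell and 0 rose (limma, Benjamini-Hochberg adjusted p under 0.05 over all genes), where 9.91% of all genes fell and 13.4% rose. In WT livers 37 fell and 1, Cox6a2, rose, where 11.3% of all genes fell and 13.2% rose. Most members were bright, with 72 of 79 above the median gene level. Of the 11551 genes above that level, 1688 fell and 2474 rose in KO livers, and 1477 fell and 2541 rose in WT livers. The median log2 difference of the members was -0.29 in KO and -0.30 in WT livers, against -0.04 over all genes in each, and 72 and 73 members lay below 0. In linear terms the median member was 18.2% lower in KO and 18.9% lower in WT livers, and the largest falls were of 33.5% and 34.3%. Falls called in both genotypes numbered 23, which is 57.5% of the KO calls and 62.2% of the WT calls, and 25 members fell in neither. The share of all genes that fell in both genotypes was not computed. The KO and WT comparisons share no library, but each gene's variance was fitted over all 4 groups, so their calls are not independent. With each array centred on its median, 54 members fell in KO and 56 in WT livers, and 20.6% and 23.4% of all genes fell. The split of all called genes turned, with 2493 higher and 4748 lower in KO, against 3096 higher and 2289 lower as deposited, and 2347 higher and 5407 lower in WT, against 3044 higher and 2611 lower as deposited.

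These counts moved with the libraries used. Without the 2 libraries that went against their Dpt label, 44 members fell in KO and 41 in WT livers, where 12.9% and 13.5% of all genes fell. With the libraries carrying markers of other tissues left out, the counts were 46 in KO and 39 in WT livers, where 13.7% and 5.53% of all genes fell. That setting kept only replicates 1, 2, 6 and 7 of the WT CCl4 livers, and replicate 1 went against its Dpt label. Leaving out the 6 oil libraries with Y-linked signal gave 19 in KO and 20 in WT livers, where 6.20% and 6.31% of all genes fell. In KO oil livers, members were a median of 0.20 higher in the 3 libraries with that signal than in the 7 without it, against 0.0049 over all genes. The 7 include replicates 7 and 10, each the lowest of its group for 33 of 79 members. Their part in the difference was not tested. Within WT oil livers the difference by Y-linked signal was 0.01 over the members. Leaving out every library with any of these features gave 30 in KO and 36 in WT livers, where 12.0% and 6.42% of all genes fell. Of the WT CCl4 libraries only replicates 2, 6 and 7 were then left, so the WT values of this setting rest on few arrays.

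**Figure D1:**
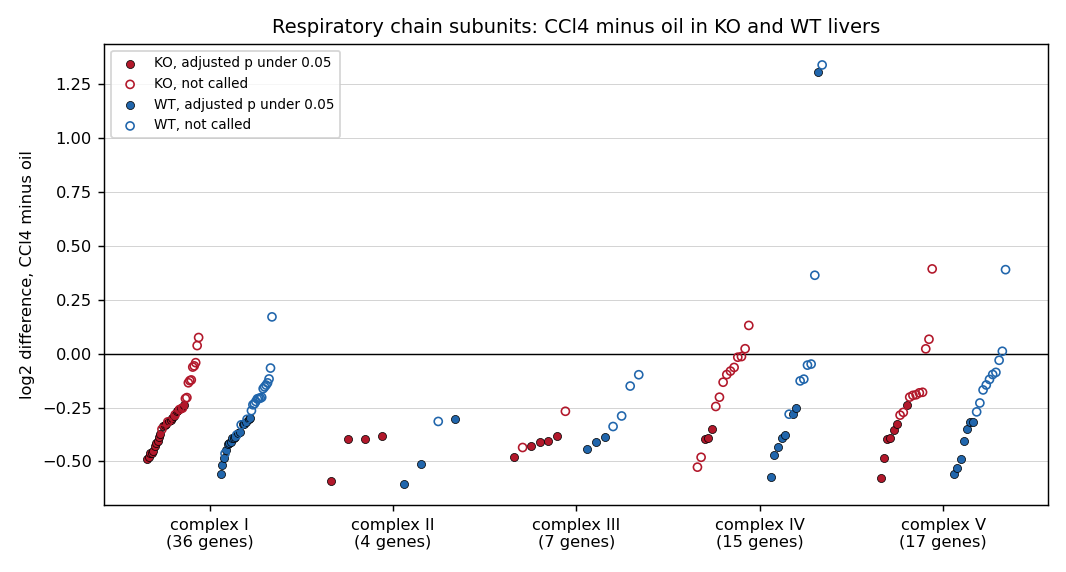
Log2 difference of each member between CCl4 and oil livers (vertical axis), by complex, with KO (red) left of WT (blue) and members sorted by size. Filled points passed an adjusted p of 0.05; nearly all points lie below 0, and the 2 points above 1 are Cox6a2 and Cox8b in WT livers.

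Single probe sets ran the same way. Of the 577 probe sets of the members, 500 were lower after CCl4 in KO livers (86.7%) and 482 in WT livers (83.5%). Among the 452 probe sets brighter than the median probe set of the array, 413 were lower in KO (91.4%) and 411 in WT (90.9%). Among the 125 dimmer probe sets, 87 were lower in KO (69.6%) and 71 in WT (56.8%). For comparison, 13303 of 23102 genes lay below 0 in KO and 13111 in WT livers. The dimmer probe sets of WT livers had a share close to this one, which is of gene means of every brightness. The share among dim probe sets of all genes was not computed.

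Complex II, succinate dehydrogenase, which also works in the citric acid cycle, had all 4 of its genes lower after CCl4 in KO livers and 3 of 4 in WT livers. Sdhd, a membrane anchor subunit, read 7.05, 7.84 and 7.94 (lowest, median and highest) in KO CCl4 livers, against 7.92, 8.39 and 8.50 in KO oil livers. In WT livers it read 7.75, 7.88 and 8.09 after CCl4, against 8.39, 8.48 and 8.70 after oil. The KO ranges touched at 1 oil library, replicate 7, and the WT ranges did not overlap. Sdhd fell by 0.59 in KO (SE 0.09, adjusted p = 9.28e-06) and by 0.61 in WT livers (SE 0.10, adjusted p = 3.04e-05), and both calls held under every alternative run.

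Sdhb, the iron-sulfur subunit, read 6.72, 7.28 and 7.64 in KO CCl4 livers, against 7.18, 7.69 and 8.09 in KO oil livers. It read 6.97, 7.46 and 8.05 in WT CCl4 livers, against 7.83, 7.93 and 8.03 in WT oil livers. The ranges overlapped in both genotypes, in WT through CCl4 replicate 3, the library rich in muscle markers. Sdhb fell by 0.40 in KO (SE 0.12, adjusted p = 0.0184) and by 0.51 in WT livers (SE 0.13, adjusted p = 0.00484). Without KO CCl4 replicate 5 the KO difference was -0.32 (adjusted p = 0.0528).

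Sdha, the flavoprotein that oxidises succinate, read 8.35, 8.70 and 8.90 in KO CCl4 livers and 8.57, 9.12 and 9.26 in KO oil livers. In WT it read 8.49, 8.86 and 9.32 after CCl4 and 8.97, 9.19 and 9.26 after oil. The groups overlapped in both genotypes. Its falls were of 0.40 in KO (adjusted p = 0.00171) and 0.30 in WT livers (adjusted p = 0.0237). The WT call was lost without WT CCl4 replicate 4 (-0.26, adjusted p = 0.0543) or 7 (-0.27, adjusted p = 0.0534), with the median of probe sets and without the libraries with Y-linked signal. Sdhc, the other membrane anchor, fell by 0.38 in KO livers (adjusted p = 0.0236), while its WT difference was -0.31 (adjusted p = 0.0795). Its range was 6.83 to 7.82 in KO CCl4 and 7.29 to 8.17 in KO oil livers, with medians of 7.67 and 7.97. Leaving out KO CCl4 replicate 5 brought the KO difference of Sdhc to -0.29 (adjusted p = 0.0694).

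**Figure D2:**
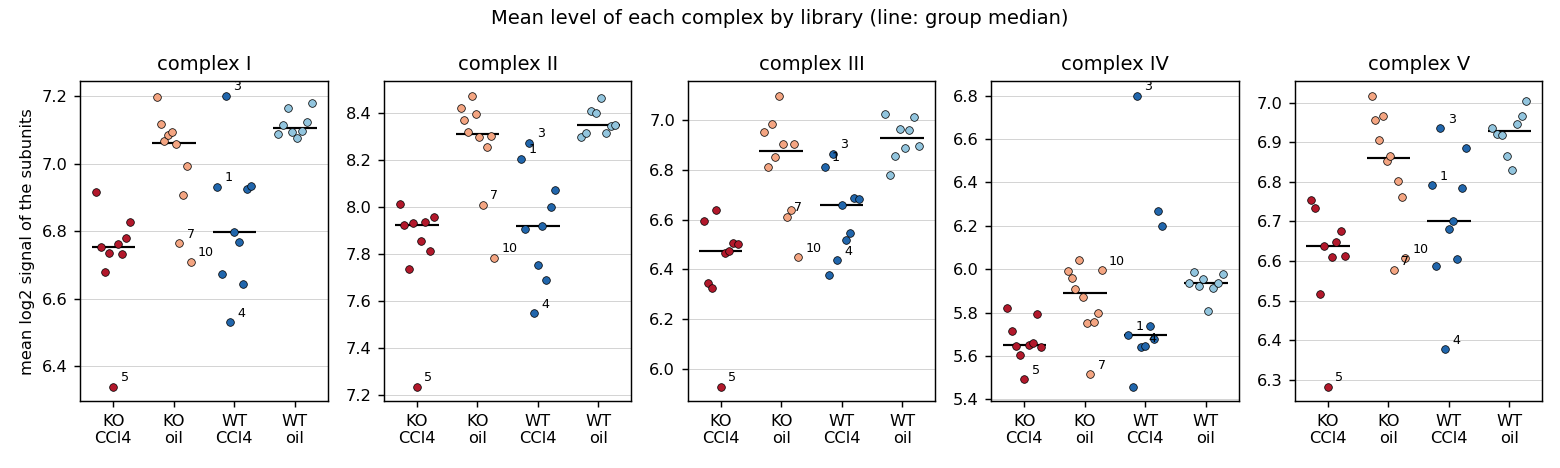
Mean log2 signal of the members of each complex (vertical axis) in every library, 1 panel a complex, with KO left of WT and CCl4 left of oil; lines are group medians and digits are replicate numbers of libraries that stand apart. KO CCl4 replicate 5 is lowest of its group in all 5 panels, KO oil replicates 7 and 10 lie low in complexes I, II, III and V, and WT CCl4 replicate 3 lies high.

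Complex I, the NADH dehydrogenase, fell in 21 of 36 members in KO and 17 of 36 in WT livers, 9 of them in both. Its median log2 difference was -0.30 in KO and -0.31 in WT livers. Ndufb7, an accessory subunit of the membrane arm, had the smallest adjusted p of the complex in both genotypes and was chosen for that after its values were seen. It read 5.96, 6.32 and 6.46 in KO CCl4 livers, against 6.46, 6.67 and 6.99 in KO oil livers, and 6.16, 6.36 and 6.58 in WT CCl4 livers, against 6.62, 6.78 and 6.97 in WT oil livers. Every CCl4 library lay below every oil library in both genotypes, which held for 1 member in KO and 3 in WT livers, and for 0.113% and 0.853% of all genes. It fell by 0.45 in KO (SE 0.08, adjusted p = 5.8e-05) and by 0.45 in WT livers (SE 0.08, adjusted p = 0.000263). With the median of its 5 probe sets in place of their mean, the KO difference was -0.21 (adjusted p = 0.191).

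The largest called fall of complex I in WT livers was that of Ndufs8, an iron-sulfur subunit of the hydrophilic arm. It read 7.72, 8.14 and 8.44 in WT CCl4 livers, against 8.33, 8.66 and 8.85 in WT oil livers, with a slight overlap. That fall was of 0.56 (SE 0.15, adjusted p = 0.00531), and all 8 probe sets were lower. In KO livers its difference was -0.35 (adjusted p = 0.0602), with 7.04, 8.21 and 8.59 after CCl4 and 7.97, 8.52 and 8.73 after oil. KO CCl4 replicate 5 set the low end there, and the next library of its group read 7.94. Without it the KO difference was -0.22 (adjusted p = 0.173), and without the libraries with Y-linked signal the WT call was lost (-0.50, adjusted p = 0.0517).

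In KO livers the largest called fall of complex I was that of Ndufs1, the largest subunit and part of the electron input module. It read 6.46, 7.01 and 7.22 in KO CCl4 livers, against 7.05, 7.49 and 7.77 in KO oil livers. In WT livers it read 6.89, 7.32 and 7.90 after CCl4, against 7.27, 7.42 and 7.73 after oil. The KO groups overlapped through oil replicate 10, and the WT ranges lay over each other. Ndufs1 fell by 0.49 in KO livers (SE 0.10, adjusted p = 0.000535), with 23 of 24 probe sets lower, and differed by -0.07 in WT livers (SE 0.11, adjusted p = 0.678). The difference between these effects was -0.42 (SE 0.15), which did not pass the interaction test (adjusted p = 0.848).

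Other parts of complex I followed. Ndufv1, the flavoprotein that takes electrons from NADH, fell by 0.46 in KO and 0.48 in WT livers (adjusted p = 0.00118 and 0.00179). Ndufa9, at the junction of the arms, fell by 0.48 in KO and 0.52 in WT livers (adjusted p = 0.00279 and 0.0029). Ndufs3 of the hydrophilic arm fell by 0.37 in KO and 0.38 in WT livers. The X-linked Ndufa1 fell only by the WT test, by 0.39 (adjusted p = 0.029, against a KO difference of -0.06 with adjusted p = 0.768), and the interaction was not called for it. The WT call was lost without any 1 of 5 libraries (WT oil replicates 3, 7 and 8, WT CCl4 replicates 4 and 6), with differences of -0.37 to -0.32, and under 2 other alternatives. Members that were not called in either genotype included Ndufa2, Ndufa8, Ndufb8 and Ndufb11. Ndufa4l2, a paralogue of Ndufa4 known to be induced in low oxygen, differed by 0.07 in KO and 0.17 in WT livers and was not called.

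Ndufa4, now counted with complex IV but named as a complex I gene, fell by 0.29 in KO (adjusted p = 0.0419) and by 0.30 in WT livers (adjusted p = 0.0473). Its general level was 8.98 to 9.83 in KO CCl4 and 9.34 to 10.14 in KO oil livers. In WT livers it was 9.22 to 10.03 after CCl4 and 9.93 to 10.13 after oil. These ranges overlapped.

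Complex III passes electrons from ubiquinol to cytochrome c. It fell in 5 of 7 members in KO and 3 of 7 in WT livers, with median log2 differences of -0.41 and -0.34. Uqcrc1, a core subunit facing the matrix, read 7.51, 8.05 and 8.34 in KO CCl4 livers, against 8.00, 8.58 and 8.80 in KO oil livers. It read 7.74, 8.34 and 8.94 in WT CCl4 livers, against 8.35, 8.72 and 8.88 in WT oil livers. The groups overlapped, and WT CCl4 replicate 3 was above every oil library. Uqcrc1 fell by 0.48 in KO (SE 0.12, adjusted p = 0.0034), the largest called fall of the complex there, and by 0.41 in WT livers (SE 0.13, adjusted p = 0.0181). The WT call was lost with the median of probe sets (-0.37, adjusted p = 0.0526) and without the libraries with Y-linked signal (-0.37, adjusted p = 0.106).

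The small accessory subunit Uqcr11 read 5.71, 5.89 and 6.14 in KO CCl4 livers, against 5.66, 6.38 and 6.62 in KO oil livers. In WT livers it read 5.70, 6.03 and 6.62 after CCl4, against 6.29, 6.46 and 6.61 after oil. In each genotype 1 library decided the overlap, and both were the libraries that went against their Dpt label: KO oil replicate 10 was lowest of the oil group, and WT CCl4 replicate 1 was highest of the CCl4 group. Uqcr11 fell by 0.41 in KO (SE 0.10, adjusted p = 0.00188) and by 0.44 in WT livers (SE 0.10, adjusted p = 0.0022). Uqcrq, which binds ubiquinone, also fell in both, by 0.38 in each (adjusted p = 0.0222 in KO and 0.031 in WT livers).

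Uqcrc2, the partner core subunit, read 7.95, 8.43 and 8.69 in KO CCl4 livers, against 8.44, 8.86 and 9.10 in KO oil livers. WT values were 8.49, 8.65 and 9.08 after CCl4 and 8.68, 8.85 and 8.94 after oil. The groups overlapped in both genotypes, most of all in WT. It fell by 0.41 in KO (SE 0.09, adjusted p = 0.000639) and differed by -0.10 in WT livers (SE 0.09, adjusted p = 0.451), with an interaction of -0.31 (SE 0.13, adjusted p = 0.848). Cytochrome c1 (Cyc1), a complex III subunit outside the naming rule, fell by 0.60 in KO and 0.57 in WT livers (adjusted p = 0.00451 and 0.0109). It was the 1 of 5 subunits outside the rule that fell in KO livers, and in WT livers 2 of 5 fell, the other being Cox4i1 of complex IV (by 0.43, adjusted p = 0.0227, against a KO difference of -0.21 with adjusted p = 0.282). Cox4i2, Ndufab1 and the electron carrier Cycs were not called, and the median of the 5 was -0.20 in KO and -0.17 in WT livers.

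**Figure D3:**
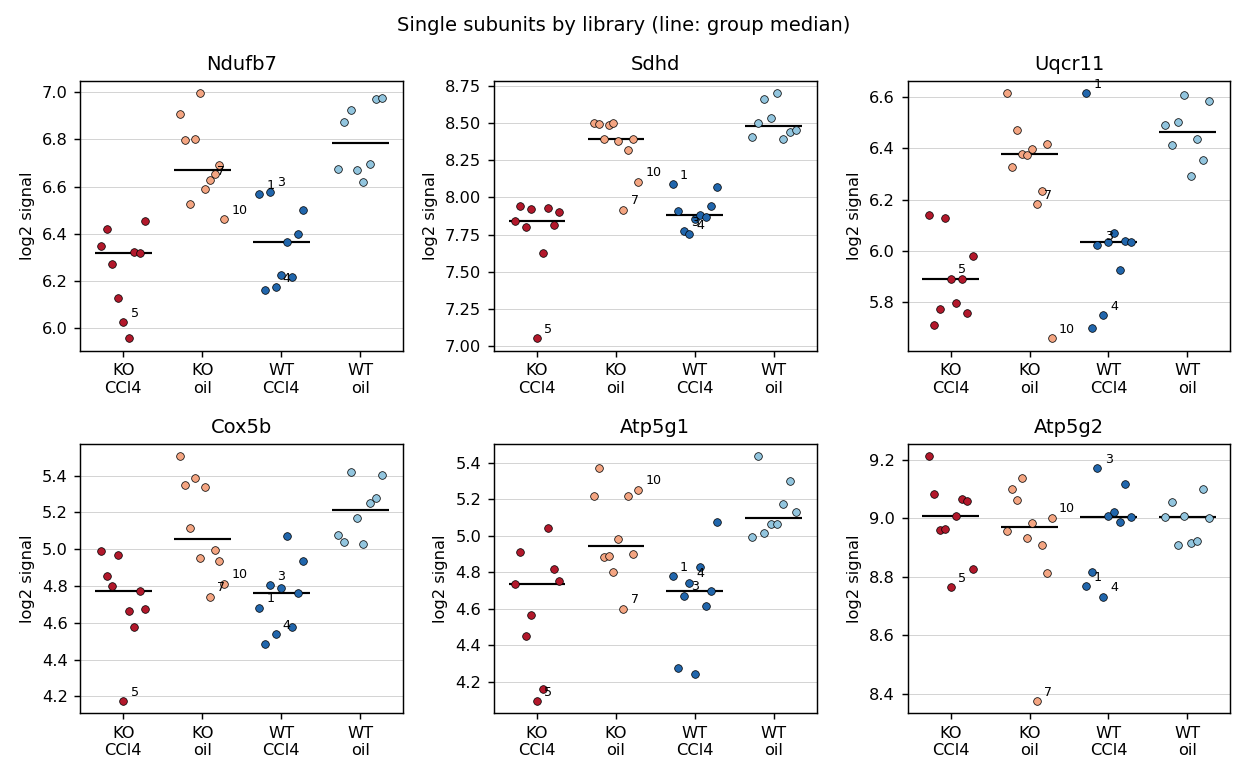
Log2 signal (vertical axis) of 6 subunits in every library, with KO left of WT and CCl4 left of oil; lines are group medians and digits are replicate numbers. CCl4 libraries lie below oil libraries for Ndufb7 without overlap, for Sdhd with 1 KO oil library reaching down, and for Uqcr11, Cox5b and Atp5g1 with overlap, while Atp5g2 has group medians of 8.97 to 9.01.

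Complex IV, cytochrome c oxidase, fell in 3 of 15 members in KO livers (Cox5a, Cox5b and Cox6b1) and in 7 of 15 in WT livers, and 1 rose in WT. Its median log2 difference was -0.13 in KO and -0.25 in WT livers, taken over all 15 members. These include Cox7a2l, which is no structural subunit and is among the WT falls. They also include the forms of muscle, brown fat or testis described below, some of them near the floor of the array. Without the tissue-restricted forms, the mean level of the complex had a median of 7.299 in KO CCl4 and 7.517 in KO oil livers. In WT livers the medians were 7.351 after CCl4 and 7.621 after oil. The KO groups overlapped in this mean and the WT groups did not. Cox5b, a subunit on the matrix side, read 4.17, 4.77 and 4.99 in KO CCl4 livers, against 4.74, 5.06 and 5.51 in KO oil livers. WT livers gave 4.48, 4.76 and 5.07 after CCl4 and 5.03, 5.21 and 5.42 after oil, a narrow overlap. Cox5b fell by 0.39 in KO (SE 0.10, adjusted p = 0.00424) and by 0.47 in WT livers (SE 0.11, adjusted p = 0.00197). Its brightest probe set read a mean of 8.83 and differed by -0.20 in KO and -0.37 in WT livers. The others read 2.76 and 3.24, near the floor of the array. They differed by -0.33 and -0.64 in KO and by -0.43 and -0.61 in WT livers. The KO call was lost with only the brighter of its 3 probe sets (-0.20, adjusted p = 0.246) and without the libraries with Y-linked signal (-0.30, adjusted p = 0.0592).

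Cox6b1, which sits where the enzyme forms a dimer, had the largest WT fall of the complex. It read 7.63, 8.14 and 8.67 in WT CCl4 livers, against 8.54, 8.66 and 8.97 in WT oil livers, with an overlap made by WT CCl4 replicate 3. In KO livers it read 7.61, 8.15 and 8.34 after CCl4, against 7.69, 8.62 and 8.99 after oil, where 4 of 10 oil libraries (replicates 7, 8, 9 and 10) lay within the CCl4 range. The fall was of 0.57 in WT (SE 0.14, adjusted p = 0.00316) and 0.39 in KO livers (SE 0.13, adjusted p = 0.0284). The KO call was lost without any 1 of 6 libraries, for example without KO CCl4 replicate 5 (-0.33, adjusted p = 0.0726), and without the 6 libraries with Y-linked signal (-0.26, adjusted p = 0.234).

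Complex IV has forms that belong to muscle, brown fat or testis beside general forms, and the restricted forms are given here beside the general ones. Cox6a2, the heart and skeletal muscle form of subunit 6A, was the member that rose. It read 4.00, 4.50 and 9.71 in WT CCl4 livers, against 3.82, 4.05 and 4.31 in WT oil livers, and 3.89, 4.20 and 4.74 in KO CCl4 livers, against 3.80, 4.15 and 6.16 in KO oil livers. WT CCl4 replicates 3 (9.71) and 8 (7.23) and KO oil replicate 10 (6.16) stood above all others. The WT difference was 1.31 (SE 0.47, adjusted p = 0.0409) and the KO difference -0.10 (SE 0.45, adjusted p = 0.905). Mean skeletal muscle marker levels were 10.02 and 8.00 in those WT CCl4 replicates and 6.11 in KO oil replicate 10, against 3.56 to 5.53 in the other libraries. Without the libraries carrying markers of other tissues the WT difference of Cox6a2 was 0.21 (adjusted p = 0.397). Cox6a1, the general form, read 10.25, 11.04 and 11.32 in WT CCl4 livers and 10.96, 11.07 and 11.14 in WT oil livers. Its lowest value of all came from WT CCl4 replicate 3, and its differences were 0.02 in KO and -0.12 in WT livers (adjusted p = 0.887 and 0.361).

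Cox8b, the muscle form of subunit 8, read 2.42, 2.76 and 8.88 in WT CCl4 livers, against 2.45, 2.88 and 2.95 in WT oil livers. It read 2.23, 2.89 and 4.33 in KO CCl4 livers, against 2.36, 2.58 and 4.57 in KO oil livers. High values came from WT CCl4 replicates 3 (8.88), 9 (6.24) and 8 (6.04), and the group medians lay between 2.58 and 2.89. The WT difference of 1.34 was not called (SE 0.58, adjusted p = 0.0871). WT CCl4 replicate 9 also had the highest mean of the brown adipocyte markers, 7.62, against 2.89 to 5.83 in the other libraries. The general form Cox8a fell in WT livers by 0.44 (SE 0.10, adjusted p = 0.00121). It read 8.84, 9.27 and 9.53 in WT CCl4 livers, against 9.50, 9.67 and 9.72 in WT oil livers, and the groups barely overlapped. In KO livers Cox8a differed by -0.08 (adjusted p = 0.568), with an interaction of 0.35 (SE 0.13, adjusted p = 0.848).

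Cox7a1, the form of muscle and brown fat, read 3.43, 3.78 and 8.46 in WT CCl4 livers, against 4.01, 4.29 and 4.75 in WT oil livers. It read 3.46, 3.76 and 3.97 in KO CCl4 livers, against 3.96, 4.16 and 4.66 in KO oil livers. Medians after CCl4 were thus below those after oil in both genotypes, while WT CCl4 replicates 3, 8 and 9 stood far above. Its WT difference was 0.36 with all libraries (adjusted p = 0.525) and turned to -0.60 without those carrying markers of other tissues. The KO difference was -0.53 (adjusted p = 0.34), and the KO ranges overlapped only between 3.96 and 3.97. The variance behind this p-value is shared by all groups and takes in WT CCl4 replicates 3, 8 and 9. The KO test of Cox6a2 likewise takes in its high WT CCl4 libraries. Cox7a2, the general form, read 7.13, 8.02 and 8.21 in KO CCl4 livers, against 7.20, 8.32 and 8.63 in KO oil livers. It read 7.57, 8.04 and 8.203 in WT CCl4 livers, against 8.18, 8.40 and 8.47 in WT oil livers. Ranges overlapped, and the fall of 0.38 in WT livers (adjusted p = 0.0476) was lost without any 1 of 24 libraries.

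The testis forms Cox7b2 and Cox8c stayed near the floor of the array. Cox7b2 read 2.06 to 2.44 in KO CCl4, 2.13 to 2.61 in WT CCl4, 2.14 to 2.61 in KO oil and 2.43 to 2.97 in WT oil livers, and Cox8c 2.09 to 2.72 over all libraries. Y-linked genes averaged 2.34 to 3.06 in the 30 libraries without Y-linked signal, which shows what an absent gene can read. The call of a fall of Cox7b2 in WT livers (-0.28, adjusted p = 0.00589) therefore concerns a gene mean at that floor. Of its 4 probe sets, 1 read a mean of 4.33 and differed by -0.73 in WT and -0.47 in KO livers. The others read 1.65 to 2.04 and differed by -0.27 to -0.0001 in WT livers. Cox6b2, another testis form, read higher, at 3.67 to 4.51, and was not called.

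**Figure D4:**
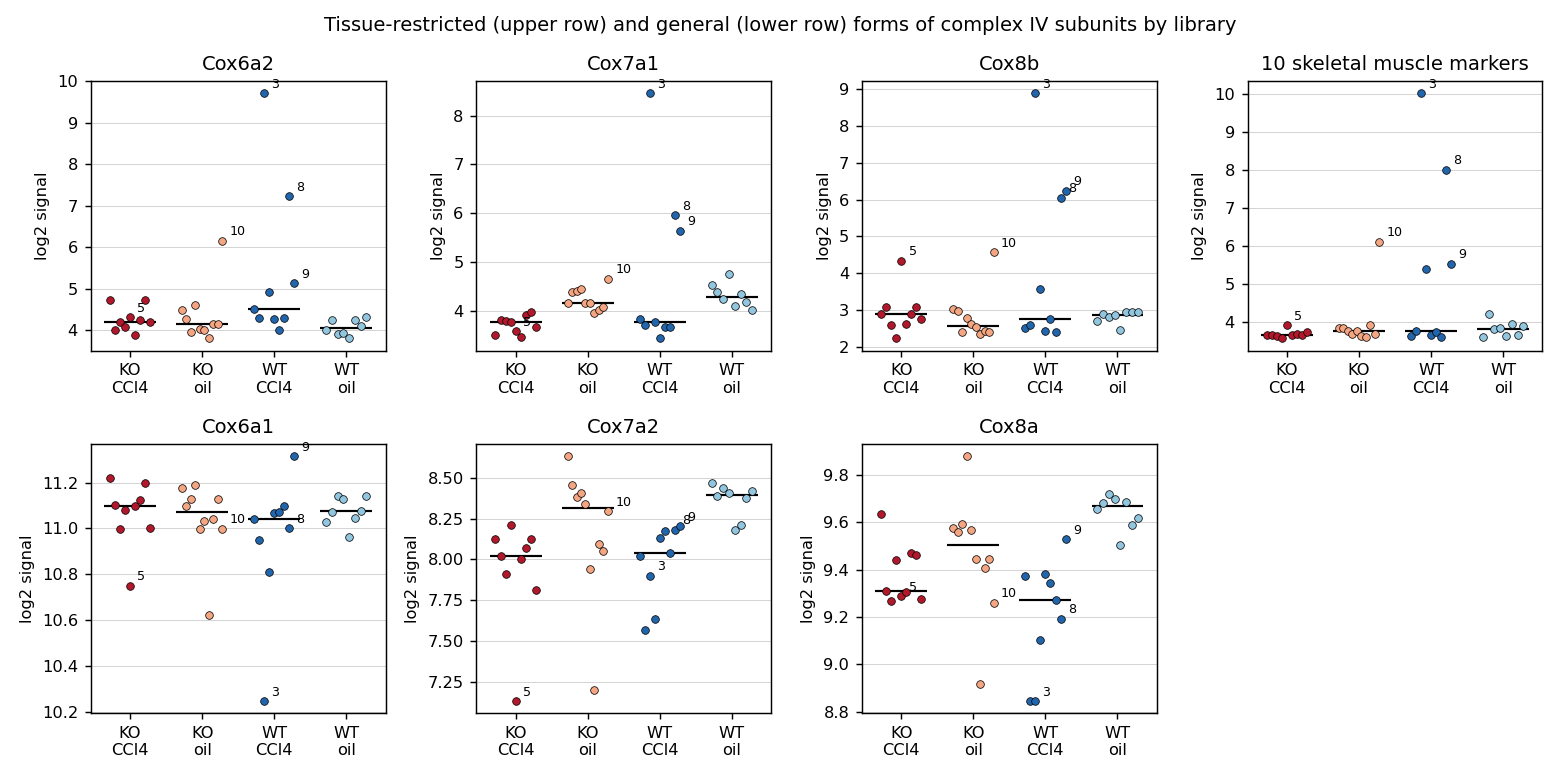
Log2 signal (vertical axis) of the tissue-restricted forms Cox6a2, Cox7a1 and Cox8b (upper row) over their general forms Cox6a1, Cox7a2 and Cox8a (lower row) in every library, with the mean of 10 skeletal muscle markers at the upper right. Lines are group medians and digits are replicate numbers; WT CCl4 replicates 3, 8 and 9 are the highest points of Cox7a1 and Cox8b, and WT CCl4 replicates 3 and 8 and KO oil replicate 10 those of Cox6a2.

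Of the 17 members named for complex V, the ATP synthase, 7 fell in each genotype, 5 of them in both. Their median log2 differences were -0.24 in KO and -0.23 in WT livers. The 17 take in Atp5s and Atp5sl, which are no structural subunits, and Atp5sl is among the 5 that fell in both. Atp5k, the e subunit that helps enzymes pair up in the membrane, read 5.82, 5.99 and 6.37 in KO CCl4 livers, against 6.00, 6.56 and 6.93 in KO oil livers. It read 5.51, 6.28 and 6.89 in WT CCl4 livers, against 6.47, 6.67 and 7.09 in WT oil livers. Both pairs of groups overlapped. It fell by 0.48 in KO (SE 0.13, adjusted p = 0.00707) and by 0.56 in WT livers (SE 0.14, adjusted p = 0.00425), with all 4 probe sets lower in each. Without the libraries with Y-linked signal the KO call was lost (-0.37, adjusted p = 0.0799). Atp5c1, the central stalk subunit, fell by 0.24 in KO and 0.32 in WT livers (adjusted p = 0.0305 and 0.00733). Atp5j, the coupling factor 6 of the outer stalk, fell by 0.35 in KO and 0.32 in WT livers (adjusted p = 0.00682 and 0.0233). The catalytic beta subunit Atp5b differed by -0.18 in KO and -0.09 in WT livers and was not called (adjusted p = 0.11 and 0.483).

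The c subunit of the membrane rotor is made from 3 genes that differ in their import signals and encode the same mature protein. Atp5g1 read 4.09, 4.73 and 5.04 in KO CCl4 livers, against 4.60, 4.94 and 5.37 in KO oil livers. Its WT values were 4.24, 4.70 and 5.07 after CCl4 and 4.99, 5.10 and 5.44 after oil. The groups overlapped, narrowly in WT, and Atp5g1 fell by 0.40 in KO (SE 0.12, adjusted p = 0.0108) and by 0.49 in WT livers (SE 0.12, adjusted p = 0.00389). The KO call was lost without every library with any doubted feature (-0.30, adjusted p = 0.0872) and without the 10 libraries that went against their label, had low periportal genes or had Y-linked signal. The WT call was lost with brighter probe sets alone (-0.37, adjusted p = 0.0621).

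Atp5g2 read 8.76, 9.01 and 9.21 in KO CCl4 livers, against 8.37, 8.97 and 9.14 in KO oil livers. In WT livers it read 8.73, 9.00 and 9.17 after CCl4, against 8.91, 9.00 and 9.10 after oil. Its group medians lay between 8.97 and 9.01, and its differences were 0.07 in KO (SE 0.08) and -0.03 in WT livers (SE 0.08). Atp5g3 differed by -0.27 in KO and -0.15 in WT livers and was not called (adjusted p = 0.0786 and 0.386).

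The genes that the naming rule added and that are no structural subunits gave mixed values. Atp5sl, now Dmac2 and known as a complex I assembly factor, read 4.67, 4.96 and 5.22 in KO CCl4 livers, against 4.83, 5.64 and 5.82 in KO oil livers. It read 4.75, 5.05 and 5.53 in WT CCl4 livers, against 5.42, 5.61 and 5.87 in WT oil livers. The overlap in KO came from oil replicate 10. Atp5sl fell by 0.58 in KO (SE 0.11, adjusted p = 0.000107) and by 0.53 in WT livers (SE 0.11, adjusted p = 0.000881), with all 9 probe sets lower in each. Atp5s, now Dmac2l, had differences of 0.39 in both genotypes that were not called (adjusted p = 0.0572 in KO and 0.0727 in WT). Without the libraries carrying markers of other tissues, its KO difference was 0.51 (adjusted p = 0.00779). Cox7a2l, counted with complex IV, fell by 0.25 in WT livers, the smallest called fall there, and was not called in KO livers. With these genes, the tissue-restricted forms and Ndufa4l2 left out, 39 of 69 members fell in KO and 34 in WT livers, and 0 rose. Of all genes 9.91% and 11.3% fell.

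Set side by side with oil livers, single libraries accounted for much of the spread within groups. KO CCl4 replicate 5 was the lowest of its group for 53 of 79 members (67.1%), against 24.6% of all genes, and its means were 6.34 for complex I and 7.24 for complex II, where the other 8 libraries lay at 6.68 to 6.92 and 7.74 to 8.01. KO oil replicates 7 and 10 were each lowest for 33 members (41.8%), against 20.2% and 19.9% of all genes. WT CCl4 replicate 4, which had the highest pancreas marker mean (11.40), was lowest for 36 members (45.6%, against 8.6% of all genes), and WT CCl4 replicate 3 was highest for 43 (54.4%, against 22.5%). The 8 WT oil libraries were the tightest group, with complex I means of 7.08 to 7.18 and complex II means of 8.30 to 8.47.

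Loss of dermatopontin was compared within each treatment. In CCl4 livers 0 of 79 members were called between KO and WT by limma, with 10 at an unadjusted p under 0.05, where 0.0563% of all genes were called. In oil livers 0 were called, with 6 at an unadjusted p under 0.05, where 0.0346% of all genes were called. The interaction, which asks whether CCl4 acted differently in the genotypes, called 0 members, with 4 at an unadjusted p under 0.05, and 0% of all genes. Each count was also 0 under every alternative run. These comparisons share libraries with those of CCl4 against oil.

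Members leaned towards lower values in KO livers. After CCl4 the median log2 difference was -0.12 with 61 of 79 below 0, and after oil -0.09 with 68 below 0, against 11439 and 11634 of 23102 genes below 0. Without the libraries carrying markers of other tissues the median after CCl4 was 4e-04, with only WT CCl4 replicates 1, 2, 6 and 7 left on the WT side. Ndufs1 had the smallest adjusted p after CCl4 (-0.40, SE 0.11, adjusted p = 0.154), and Uqcrc2 the next (-0.29, SE 0.09, adjusted p = 0.262). As given above, their KO and WT ranges overlapped after CCl4. After oil, Cox7b2 (-0.22) and Cox7c (-0.31) had the smallest p-values, with an adjusted p of 1. Cox7c, a small subunit on the membrane, read 4.29, 4.39 and 4.66 in KO oil livers, against 4.43, 4.82 and 4.95 in WT oil livers, and the groups overlapped.

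Genes that work beside the subunits were followed with lists of known members. The 8 measured subunits that are encoded in mitochondrial DNA (7 of complex I and 1 of complex IV) were not called in any comparison. Their mean level was 11.97 to 12.25 in KO CCl4, 12.05 to 12.27 in WT CCl4, 12.04 to 12.29 in KO oil and 12.09 to 12.22 in WT oil livers. The WT ranges overlapped, while in KO 3 CCl4 libraries (replicates 1, 4 and 8) lay below every oil library and 1 oil library (replicate 7) above every CCl4 library. The differences after CCl4 were -0.29 (mt-Nd6) to -0.01 in KO livers, with 8 of 8 below 0 and a median of -0.05, and -0.09 to 0.06 in WT livers, with 3 of 8 below 0 and a median of 0.01. With arrays centred on their medians, 5 fell in KO and 1 in WT livers, where 20.6% and 23.4% of all genes fell. Each was read by 1 probe set, near the top of the array's range (highest value 13.66), and the effect of such bright signals on differences was not tested.

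**Figure D5:**
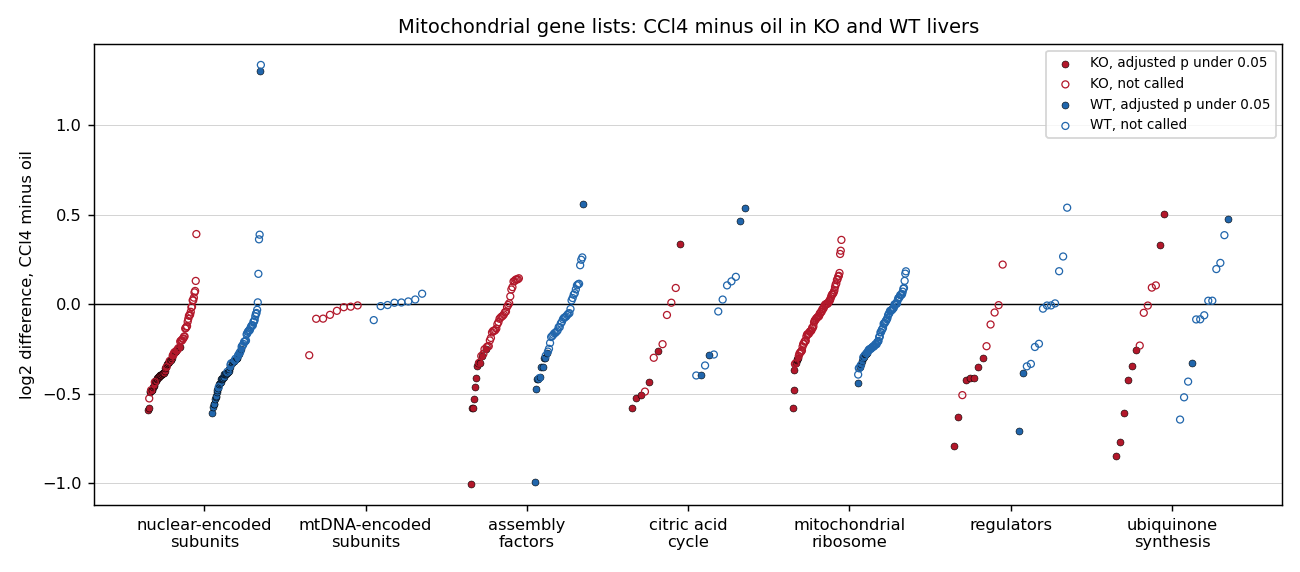
Log2 difference between CCl4 and oil livers (vertical axis) of each gene of 7 lists, with KO (red) left of WT (blue) and genes sorted by size; filled points passed an adjusted p of 0.05. The nuclear-encoded subunits lie mostly below 0, and none of the mitochondrial DNA-encoded subunits is filled, with all 8 KO points below 0 and the lowest at -0.29.

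Of 46 assembly factors, which build the complexes without being part of them, 11 fell in KO livers, and in WT livers 10 fell and 1 rose. The counts of this and the following lists stand against 9.91% of all genes lower and 13.4% higher in KO livers, and 11.3% lower and 13.2% higher in WT livers. Sco2, a copper chaperone of complex IV, fell by 1.01 in KO and 0.99 in WT livers (adjusted p = 0.00177 and 0.00421). It read 4.23, 5.72 and 6.52 in KO CCl4 livers, against 5.67, 6.83 and 6.94 in KO oil livers, and 4.87, 5.63 and 7.21 in WT CCl4 livers, against 6.32, 6.83 and 7.14 in WT oil livers, with overlap in both. Tmem126b and Ndufaf1, which build the membrane arm of complex I, fell in both genotypes. Cox15, which makes haem a for complex IV, rose by 0.56 in WT livers (adjusted p = 0.000739). The 77 mitochondrial ribosomal proteins fell in 7 cases in KO and 9 in WT livers, shares of the list close to those of all genes that fell.

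Among 12 citric acid cycle enzymes, 5 fell and 1 rose in KO livers, and 2 fell and 2 rose in WT livers. Idh3b and Sucla2 fell in both, while Mdh2, the mitochondrial malate dehydrogenase, rose by 0.34 in KO (adjusted p = 0.0241) and by 0.54 in WT livers (adjusted p = 0.00109). Of 13 genes of ubiquinone synthesis, 6 fell and 2 rose in KO livers, where the share that fell exceeded that of all genes. In WT livers 1 fell and 1 rose, which is no larger a share than over all genes. Of 7 mitochondrial antioxidant genes, 1 fell in KO livers (Sod2, by 0.40, adjusted p = 0.00561) and 0 in WT livers.

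Of 13 regulators of mitochondrial genes, 7 fell in KO and 2 in WT livers. Ppargc1b, a coactivator of respiratory genes, read 4.37, 4.73 and 4.94 in KO CCl4 livers, against 4.52, 5.56 and 5.92 in KO oil livers. It read 4.26, 4.82 and 5.50 in WT CCl4 livers, against 5.44, 5.53 and 5.80 in WT oil livers. Single libraries made the overlaps, KO oil replicate 10 among them, and Ppargc1b fell by 0.79 in KO and 0.71 in WT livers (adjusted p = 0.000164 and 0.00149). Yy1 fell by 0.35 in KO and 0.38 in WT livers (adjusted p = 0.00271 and 0.00281). Tfam, which packs and transcribes mitochondrial DNA, fell by 0.63 in KO livers (adjusted p = 0.000206), and Gabpa, the DNA-binding subunit of GABP, by 0.41 (adjusted p = 0.0022). No interaction was called for any of these genes, and with the libraries against their Dpt label left out the WT count was 4.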

How the data were processed

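Livers of 36 mice were read on MoGene-2_0-st arrays, 1 array a mouse. The log2 values are those the authors deposited, made with RMA per the submitters' processing notes; no version or build is given in the sources used here. Probe sets naming 1 gene symbol were kept (233753 of 269479; 5139 named several and 30587 none), 2247 symbols were updated, and probe sets were averaged per gene, with no filter on dim genes. Another deposited table had 36 columns that matched no sample title and was not used. Groups were taken from the sample titles. All 23102 genes were fitted with limma 3.58.1 (R 4.3.3, lmFit and eBayes) on 4 group means over 36 arrays, with Benjamini-Hochberg adjustment over all genes and calls at an adjusted p under 0.05; the fit was tested on simulated data. The contrasts were CCl4 against oil in each genotype, KO against WT within each treatment, and their interaction. Values per group are given for the largest called fall and rise in each complex and CCl4 contrast, the 2 smallest adjusted p of each genotype contrast, tissue-restricted isoforms beside their general forms, and up to 4 called genes of a list; others named were chosen after their values were seen. The members and lists were chosen with earlier results of these data known. Alternatives changed the probe set summary, scaling, dim-gene filter, samples fitted, array weights, replicate block and libraries included. Library features were read from marker lists.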

Additional observations from a re-analysis of the deposited data

Results flagged for a closer look

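Of 112 groups tested, 25 had a library at one end whose gap to its neighbour was large against the group's range, where chance gives about 1 in 20. KO CCl4 replicate 5 was lowest for the means of complexes I (6.34), II (7.24), III (5.93) and V (6.28). It was also lowest for Sdhc (6.83), Sdhd (7.05), Ndufs8 (7.04), Ndufs1 (6.46), Uqcrc2 (7.95), Cox6a1 (10.75) and Cox7a2 (7.13), and highest for Cox8b (4.33). This library had the lowest mean of the hepatocyte markers (8.12) and the highest of the adipocyte markers (6.75), and their part was not tested. KO oil replicate 10, which went against its Dpt label, was lowest for Sdha (8.57), Sdhc (7.29) and Uqcr11 (5.66) and highest for Cox6a2 (6.16) and Cox8b (4.57). KO oil replicate 7 was lowest for Cox6a1 (10.62), Cox7a2 (7.20) and Atp5g2 (8.37). WT CCl4 replicate 3 was highest for Cox7a1 (8.46) and lowest for Cox6a1 (10.25), and WT CCl4 replicate 1, the other library against its Dpt label, was highest for Uqcr11 (6.62). WT oil replicate 5 was lowest for the complex IV mean (5.81) and for Cox8b (2.45).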

How the results depend on the processing

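The 37 falls in WT livers became 24 with the median of probe sets, 56 with centred arrays and 20 without the libraries with Y-linked signal, and the 40 in KO livers became 19 without those same libraries. The 1 rise in WT livers became 0 with brighter probe sets, with the contrast's own groups, and without the libraries with Y-linked signal, with markers of other tissues, with any of 3 features (10 libraries) or with any feature. It became 2 with array weights and without the libraries against their Dpt label or with low periportal genes, and 3 without those against their Dpt label alone. The 0 rises in KO livers became 1 (Atp5s) among genes above the median level, with array weights, and under each removal of libraries other than that for Y-linked signal. Leaving out single libraries gave 26 (without WT CCl4 replicate 4) to 45 falls and 0 to 3 rises in WT livers, and 31 to 46 falls and 0 to 1 rises in KO livers. The members' median then ranged from -0.34 to -0.24 in KO and -0.33 to -0.26 in WT livers. Between genotypes it ranged from -0.15 to -0.08 after CCl4 and -0.12 to -0.07 after oil, with 0 calls. Without the libraries with Y-linked signal the median between genotypes was -0.17 after oil. With array weights it was -0.06 after oil and -0.04 after CCl4. Without the 10 libraries it was -0.13 after oil and -0.0068 after CCl4. The median of KO against WT after CCl4 reversed to 0.051 without all libraries with any feature, a setting that kept only WT CCl4 replicates 2, 6 and 7. Cox7a1 in WT livers reversed to -1.26 with brighter probe sets, -0.60 without the libraries with markers of other tissues and -0.60 without all libraries with any feature. The causes were not tested. With the replicate number as a block, 45 members fell in KO and 37 in WT livers; of 51 same-numbered pairs 14 had a correlation over 0.1, and 4 of 36 libraries were closest to their own number, so the numbers were not taken to pair mice. Removals of libraries other than the planned ones were chosen after seeing the data. Array signals bound the precision: Cox7b2, Cox8c and, by the medians of all 4 groups, Cox8b lay at the floor, and mitochondrial DNA-encoded genes near the top.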
